A study of Mus musculus with 2 samples.

Results

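The 39 genes described here encode proteins that repair DNA or signal its damage. They were chosen by name from the 21878 gene symbols of the count tables, and all 39 were found. PolyA RNA was sequenced from the liver of FVB/N mice, an inbred strain, that had received c-Myc by hydrodynamic injection, which forces DNA in a large volume through the tail vein into hepatocytes. Both groups carry the c-Myc injection. The group called untreated here has the treatment "none" in the labels and the other group received TSA, an abbreviation that the labels do not spell out. Each group is 1 library, and the labels give no age, dose, time, sex or number of animals, nor whether tumour or surrounding liver was taken. There is therefore no replicate check, no p-value is given, and the 95% intervals in parentheses cover counting error only.

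Cells use a separate route for each kind of DNA damage. Homologous recombination copies an intact sister strand and serves cells that are copying their DNA, while end joining rejoins broken ends at any time. The Fanconi anaemia proteins release crosslinks between the strands, mismatch repair removes copying errors, base excision repair replaces single altered bases, and nucleotide excision repair cuts out bulky lesions. Checkpoint kinases halt the cell cycle while repair proceeds. Many genes of recombination and crosslink repair are transcribed mainly in dividing cells, and adult hepatocytes divide rarely.

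Repair and checkpoint transcripts were scarcer in the TSA library. The 39 genes held 42862 of 17281523 counts without treatment, 0.248% (Wilson interval 0.246 to 0.250), and 6132 of 17088227 counts with TSA, 0.0359% (0.0350 to 0.0368). Counts were lower with TSA for 38 genes, and *Ddb2* was the exception. Most genes went the same way. By total counts, 9293 of the 13027 genes with at least 20 summed counts had a ratio of TSA over untreated under 1. The ratio used below is TSA over untreated after TMM scaling, a method that sets the libraries to a common level on the assumption that most genes do not differ. Calls go by size: higher or lower means a difference of 2-fold or more whose interval leaves out 1. All 39 genes had the minimum of 20 summed counts, and by this rule 32 were lower, 1 was higher and 6 were neither. Over all 13027 genes with that minimum, 27.4% were lower and 26.0% higher. Only 6072 of these genes were neither, so the assumption behind TMM is not secure here. Without TMM, by total counts, 33 of the 39 were lower and 0 higher, against 48.7% and 16.0% of all genes. The median log2 ratio of the 39 genes was -2.26, and -2.15 relative to the median of all genes, a value that no common scaling factor moves. Differences of at least 4-fold below the untreated level were found for 22 of the 39 genes, against 12.6% of all genes tested.

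**Figure D1:**
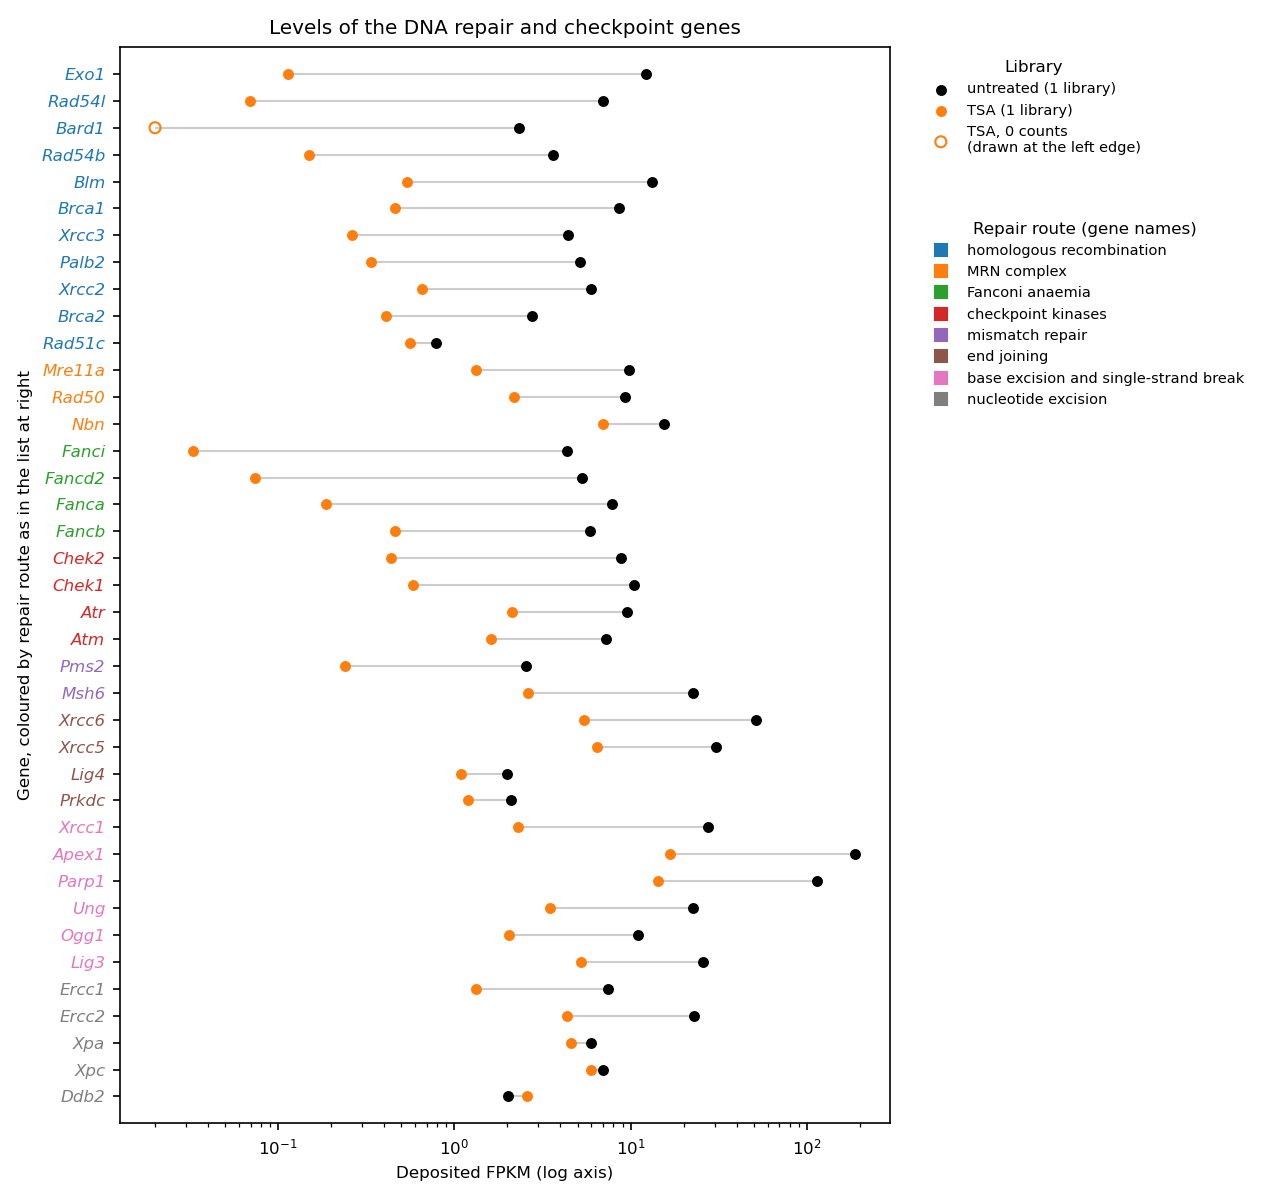
Deposited FPKM (log axis) of the 39 genes in the untreated library (black) and the TSA library (orange), 1 library each, with gene names coloured by repair route and an open circle for *Bard1*, which had 0 counts with TSA. The orange point lies left of the black point for every gene but *Ddb2*, and the gap is widest among recombination and Fanconi anaemia genes. By total counts, 9293 of all 13027 genes tested also had a ratio of TSA over untreated under 1.

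The samples differed in more than repair genes. All 12 hepatocyte markers were higher with TSA, and their summed FPKM was 7724 without treatment and 69505 with it. All 25 genes of cell division were lower, with a summed FPKM of 1199.9 against 10.1, and 24 of 25 DNA replication genes were lower, with 1205 against 77.8. For markers of other cells, the summed FPKM in parentheses covers the whole list, whatever the calls, without treatment and then with TSA. Higher calls were made for 7 of 8 endothelial genes (29.8 against 148) and 5 of 8 macrophage genes (233 against 190.1). They were also made for 3 of 7 stellate genes (81.7 against 39.8) and 5 of 5 tested erythroid genes (138 against 386). Of the lymphocyte markers 4 of 6 tested were higher (5.66 against 8.36), and of the cholangiocyte markers 3 of 5 tested (37.4 against 22.6). Lower calls were made for 1 macrophage, 1 stellate and 2 cholangiocyte genes, and among all these markers *Cftr*, of the cholangiocyte list, alone had 0 counts, with TSA. With total counts 11 of 12 hepatocyte and 5 of 8 endothelial genes were higher, 3 macrophage genes were higher and 2 lower, and 2 stellate genes were higher and 3 lower. The part of tissue makeup in the repair gene ratios was not tested. In bulk RNA, fewer cells of a type and less RNA per cell cannot be told apart.

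Promoters of the genes were searched for letter motifs of factors tied to the cell cycle and to MYC. E2F factors drive genes of DNA synthesis, the CHR element is read by complexes that switch genes of cell division, and the E-box is bound by MYC with its partner MAX. The letters searched on both strands were TTCCCGC or TTGGCGC or TTCGCGC or TTGCCGC for E2F, TTTGAA or TTCGAA for CHR, and CACGTG for the E-box. No matches of different motifs overlapped in these promoters. RefSeq promoters on GRCm38.p6, from 250 bases before to 50 after a start, were matched for 30 of the 39 genes. The labels and headers name no build for the deposited counts, and the coordinates are those of the RefSeq table. The promoters below are examples. *Fanci*, *Chek1* and *Bard1* were among the genes with much lower levels, *Apex1* was the most abundant, and *Rad51c* and *Xpa* were not lower with TMM. Each runs 5′ to 3′ along the gene's strand, and capitals mark matches to any of the motifs.

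Fanci promoter, chr7:79392088-79392387, plus strand: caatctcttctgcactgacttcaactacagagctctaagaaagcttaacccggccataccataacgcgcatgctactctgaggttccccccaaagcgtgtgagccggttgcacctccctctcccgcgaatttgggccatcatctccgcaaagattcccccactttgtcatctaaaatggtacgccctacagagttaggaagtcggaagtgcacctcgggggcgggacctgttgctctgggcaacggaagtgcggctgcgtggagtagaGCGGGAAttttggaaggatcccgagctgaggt
Chek1 promoter, chr9:36726609-36726908, minus strand: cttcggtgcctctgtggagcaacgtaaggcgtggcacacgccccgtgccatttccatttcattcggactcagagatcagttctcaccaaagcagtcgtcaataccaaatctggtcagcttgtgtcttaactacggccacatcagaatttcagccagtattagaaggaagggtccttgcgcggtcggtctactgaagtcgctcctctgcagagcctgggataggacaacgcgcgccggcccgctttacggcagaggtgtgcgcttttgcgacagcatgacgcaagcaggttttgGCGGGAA
Bard1 promoter, chr1:71102923-71103222, minus strand: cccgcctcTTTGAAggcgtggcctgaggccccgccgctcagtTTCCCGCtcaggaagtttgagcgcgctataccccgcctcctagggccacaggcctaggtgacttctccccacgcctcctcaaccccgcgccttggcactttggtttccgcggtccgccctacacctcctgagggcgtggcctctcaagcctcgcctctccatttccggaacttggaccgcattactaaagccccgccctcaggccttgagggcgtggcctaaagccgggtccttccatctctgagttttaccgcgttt
Apex1 promoter, chr14:50924699-50924998, plus strand: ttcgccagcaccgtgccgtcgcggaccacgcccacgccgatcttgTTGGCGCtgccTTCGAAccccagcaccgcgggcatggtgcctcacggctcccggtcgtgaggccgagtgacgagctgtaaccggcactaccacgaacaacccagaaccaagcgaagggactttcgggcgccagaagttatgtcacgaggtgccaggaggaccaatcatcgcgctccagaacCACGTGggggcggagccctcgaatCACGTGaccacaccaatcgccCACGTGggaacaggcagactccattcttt
Rad51c promoter, chr11:87404905-87405204, minus strand: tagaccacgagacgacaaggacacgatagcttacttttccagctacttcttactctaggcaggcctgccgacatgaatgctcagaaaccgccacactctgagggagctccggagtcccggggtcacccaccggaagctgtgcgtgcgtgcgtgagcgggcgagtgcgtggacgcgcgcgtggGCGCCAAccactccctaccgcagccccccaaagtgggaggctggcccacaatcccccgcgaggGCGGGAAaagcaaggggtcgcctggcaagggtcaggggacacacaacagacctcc
Xpa promoter, chr4:46196262-46196561, minus strand: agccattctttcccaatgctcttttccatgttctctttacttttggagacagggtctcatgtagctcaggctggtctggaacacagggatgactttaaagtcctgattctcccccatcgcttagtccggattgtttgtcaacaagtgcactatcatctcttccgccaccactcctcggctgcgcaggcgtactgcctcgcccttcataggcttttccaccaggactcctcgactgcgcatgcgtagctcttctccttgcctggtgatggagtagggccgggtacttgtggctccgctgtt

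*Fanci* holds an E2F match 19 bases after its start and *Chek1* one 44 bases after. *Bard1* holds an E2F match and a CHR match, both over 200 bases upstream. *Apex1* holds all 3 motifs, with E-box letters at -24, 1 and 22 from the start. *Rad51c* has 2 starts in the table; the one shown holds 2 E2F matches and the other start holds 1. *Xpa* holds none of these letters. Neither do *Rad54l*, *Fanca*, *Xrcc3*, *Palb2*, *Xrcc1*, *Mre11a*, *Ung* and *Ogg1*, whose promoters are not shown. In that order, these genes were 56.5-fold, 23.3-fold, 9.36-fold, 8.46-fold, 6.62-fold, 4.08-fold, 3.60-fold and 2.98-fold lower with TSA.

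E2F letters were found in 17 of the 30 genes, 56.7%, against 18.8% of 10035 tested genes with a promoter and 10.9% of all 27025 genes in the table. The same letters were in 23 of 72 promoters of the other repair genes described further on (31.9%), in 15 of 21 promoters of replication genes (71.4%) and in 3 of 21 of cell division genes (14.3%). CHR letters were found in 3 of 30 repair genes (10.0%), *Bard1*, *Atr* and *Apex1*, in 5 of 21 replication genes (23.8%), in 16 of 21 cell division genes (76.2%) and in 16.7% of tested genes. E-box letters were found in *Xrcc5*, *Apex1*, *Parp1* and *Lig3*, 13.3% of the 30, against 11.5% of tested genes. Median GC content was 59.8% for the 30 genes and 60.7% for tested genes. Within the 30, 15 of 17 genes with E2F letters and 12 of 13 without were lower, with median log2 ratios of -2.57 and -2.03. Of the 30, only *Rad51c*, *Lig4* and *Xpa* were not lower, and *Nbn*, *Prkdc*, *Xpc* and *Ddb2* had no promoter matched. These counts therefore cannot show whether the motif separates lower genes from others. A match is a string of letters and not a measured binding site.

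**Figure D2:**
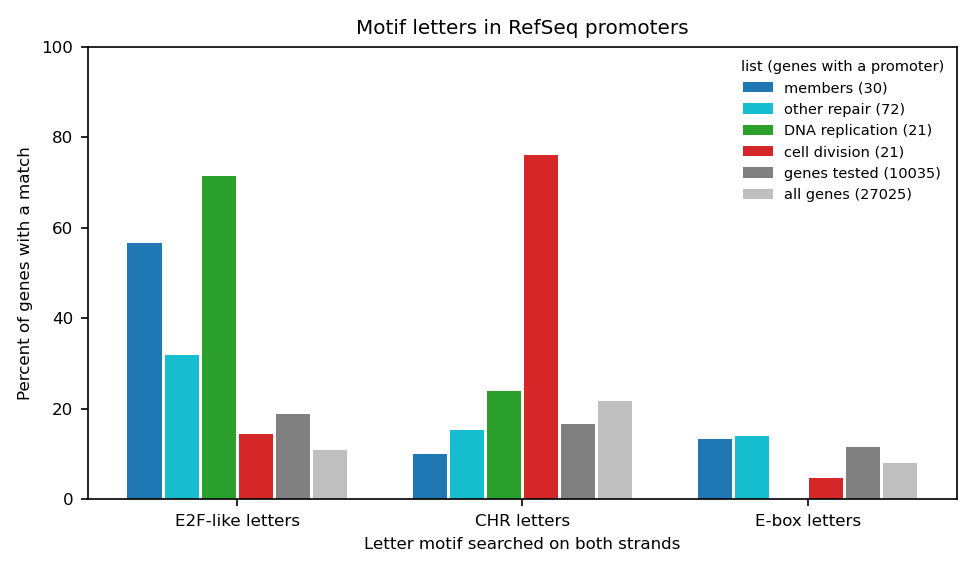
Percent of genes (bars from 0) whose RefSeq promoter holds E2F-like, CHR or E-box letters on either strand, for the repair genes (members), other repair genes, replication genes, cell division genes, tested genes and all genes, with the number of genes in the key. E2F letters stand at 56.7% in the repair genes and 71.4% in replication genes, and CHR letters at 10.0% and 76.2% in repair and cell division genes.

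Homologous recombination genes were lower in 10 of 11 cases, with a median log2 ratio of -3.26 relative to all genes. *Brca1*, for the tumour suppressor that steers broken ends towards recombination, had 1301 counts (8.61 FPKM) without treatment and 69 (0.462 FPKM) with TSA, 10.3-fold (8.11 to 13.4) lower. Its obligate partner *Bard1* had 226 counts (2.32 FPKM) and 0. With the 0 set to 3 counts it was 41.3-fold lower, and the counting interval starts at 33.3-fold. The pair was thus present at clear levels without treatment, and with TSA reads were found for *Brca1* alone. *Palb2*, which bridges BRCA1 and BRCA2, had 355 and 23 counts, 8.46-fold (5.55 to 13.5) lower. *Brca2*, for a mediator of recombination, had 592 and 87 counts and was lower by less, 3.73-fold (2.97 to 4.73).

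Wide gaps were also found in genes of enzymes that process DNA. *Exo1*, for the nuclease that trims broken ends and also serves mismatch repair, had 1203 counts (12.3 FPKM) and 11 (0.113 FPKM), 59.9-fold (33.4 to 120.4) lower. *Rad54l*, for a motor protein of strand exchange, had 722 and 7 counts, 56.5-fold (27.3 to 141) lower. Its relative *Rad54b* had 445 and 18 counts, 13.5-fold (8.47 to 23.1) lower, and shares 35.8% of its annotated exon bases with *Fsbp*, a gene on the same strand that had 24 and 2 counts. *Blm*, for the helicase that dissolves joined strands, had 1364 and 55 counts, 13.6-fold (10.4 to 18.1) lower.

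*Xrcc3*, *Xrcc2* and *Rad51c*, for related accessory proteins of recombination, did not move alike. *Xrcc3* had 205 counts (4.41 FPKM) and 12 (0.261 FPKM), 9.36-fold (5.24 to 18.4) lower, and *Xrcc2* had 330 and 36 counts, 5.02-fold (3.55 to 7.30) lower. *Rad51c*, the partner of XRCC3 in a 2-protein complex, had 50 counts (0.791 FPKM) and 35 (0.560 FPKM), a ratio of 1.28 (0.805 to 2.01) with TMM and 0.708 with total counts, and was called by neither. The *Rad51c* to *Xrcc3* ratio in FPKM was 0.179 without treatment and 2.14 with TSA. This ratio within a library needs no scaling, and it differed 11.8-fold (5.53 to 26.9) between the libraries. *Rad51c* was the least abundant of the 39 genes without treatment, and its counts are few in both libraries.

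Fanconi anaemia genes were lower without exception among the 4 listed, with the lowest route median, -4.82 relative to all genes. *Fanci* and *Fancd2*, for the paired clamp that is ubiquitinated at crosslinks, had 403 and 508 counts without treatment and 3 and 7 with TSA. *Fanci* was 73.6-fold (25.0 to 358) lower, the lowest ratio among the 38 genes with counts in both libraries, and *Fancd2* 39.8-fold (19.2 to 99.4) lower. With so few counts left, the intervals of the pair overlap and no difference between them was detectable at this depth. *Fanca* and *Fancb*, for core complex subunits that act upstream of that clamp, had 724 and 346 counts against 17 and 27, and were 23.3-fold (14.5 to 40.3) and 7.02-fold (4.74 to 10.8) lower. The 4 genes summed to 23.4 FPKM without treatment and 0.756 with TSA.

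All 4 checkpoint kinase genes were lower. The sensor kinases *Atm*, activated by double-strand breaks, and *Atr*, activated by exposed single strands, had 1531 and 1601 counts without treatment and 336 and 349 with TSA. They were 2.50-fold (2.22 to 2.82) and 2.51-fold (2.24 to 2.83) lower, and the *Atr* to *Atm* ratio in FPKM was 1.33 without treatment and 1.32 with TSA, a relative difference of 0.993 (0.839 to 1.18). The effector kinases *Chek1* and *Chek2* were lower by more than these sensors. *Chek1*, the target of ATR, had 701 and 39 counts, 9.85-fold (7.13 to 14.0) lower. *Chek2*, the target of ATM, had 431 and 21 counts, 11.2-fold (7.26 to 18.4) lower. Relative to its own sensor within the same library, *Chek1* was 3.92-fold (2.77 to 5.67) lower with TSA and *Chek2* 4.50-fold (2.85 to 7.47) lower. Genes outside these 4 were mixed. *Hus1*, *Rad1* and *Topbp1*, for proteins that help activate ATR, were 4.31-fold, 4.71-fold and 4.42-fold lower, more than *Atr*. Of all 14 checkpoint signalling genes outside these 4, 9 were lower with TMM. The 5 that were not called differed by less than *Atr*. Among them were *Atrip*, with a 1.90-fold lower value, and *Rad17*, with a 1.62-fold lower value. *Wee1*, for a kinase that restrains entry into division, had a 1.31-fold lower value and was not called either. These genes were named after their values were seen. Partner pairs such as *Chek1* and *Atr* were picked from known biology with the counts in view, and are a description.

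The MRN complex, which detects broken ends and activates ATM, showed unequal ratios among its 3 subunits. *Mre11a*, for the nuclease, had 998 counts (9.78 FPKM) and 134 (1.33 FPKM), 4.08-fold (3.40 to 4.92) lower. *Rad50*, for the long tether, had 831 and 193 counts, 2.36-fold (2.01 to 2.77) lower. *Nbn*, for the adaptor nibrin, had 768 counts (15.5 FPKM) and 340 (6.93 FPKM), 1.24-fold (1.09 to 1.41) lower with TMM and 2.23-fold lower with total counts, so that its call depends on scaling. Against *Nbn* in the same library, *Mre11a* was 3.30-fold (2.63 to 4.14) and *Rad50* 1.91-fold (1.55 to 2.35) lower with TSA.

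**Figure D3:**
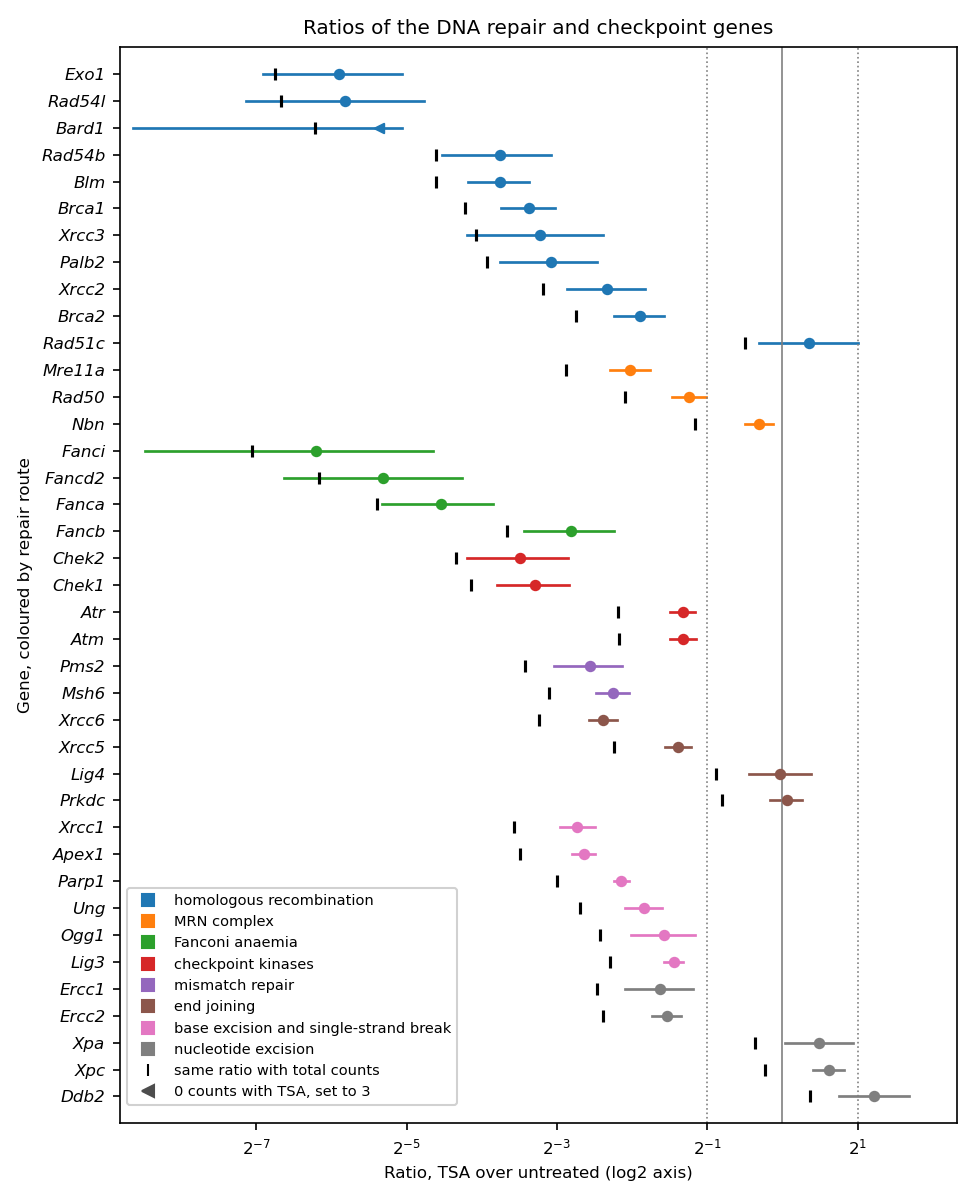
Ratio of TSA over untreated (log2 axis) for the 39 genes, coloured by route, with points for TMM scaling, lines for the 95% counting interval, short black bars for total counts and dotted lines at 2-fold in either direction; the line of *Bard1* runs on to the left. With TMM the genes right of or near a ratio of 1 are *Rad51c*, *Nbn*, *Lig4*, *Prkdc*, *Xpa*, *Xpc* and *Ddb2*, and with total counts *Ddb2* alone stays right of it.

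End joining genes differed in pairs. The Ku genes *Xrcc5* and *Xrcc6*, for the ring that caps broken ends, were abundant without treatment, at 30.6 and 51.4 FPKM, and stood at 6.48 and 5.45 FPKM with TSA. *Xrcc6* was 5.23-fold (4.61 to 5.96) lower and *Xrcc5* 2.62-fold (2.32 to 2.96) lower, so that the order of the subunits was reversed: the *Xrcc6* to *Xrcc5* ratio in FPKM was 1.68 without treatment and 0.841 with TSA. *Prkdc*, for the kinase that Ku recruits, had 506 and 287 counts, a ratio of 1.04 (0.892 to 1.20) with TMM and 0.574 with total counts. *Lig4*, for the ligase that seals the ends, had 147 and 79 counts, 1.02-fold (0.770 to 1.36) lower with TMM, and 0.543 as a ratio with total counts. Neither gene was called under any scaling run, and their direction depends on the scaling. Relative to *Xrcc6* in the same library, *Prkdc* was 5.41-fold (4.45 to 6.60) higher with TSA.

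Both mismatch repair genes were lower. *Msh6*, for the subunit that reads single mismatches, had 1671 counts (22.7 FPKM) and 191 (2.62 FPKM), 4.79-fold (4.12 to 5.60) lower. *Pms2*, for the nuclease subunit that nicks the new strand, had 509 and 47 counts, 5.93-fold (4.40 to 8.18) lower. Their intervals overlap, and the member closest to the median of all 39 genes is *Msh6* itself.

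Base excision and single-strand break genes were the most abundant and were lower in 6 of 6 cases, within a narrower range than recombination genes. *Apex1*, for the endonuclease that cuts beside a lost base, had 4247 counts (188 FPKM) and 372 (16.7 FPKM), 6.26-fold (5.63 to 6.97) lower; 61.7% of its annotated exon bases lie opposite exons of *Tmem55b*, which had 613 and 258 counts. *Parp1*, for the enzyme that marks nicks with poly(ADP-ribose), had 7529 counts (114 FPKM) and 932 (14.3 FPKM), 4.43-fold (4.13 to 4.74) lower. These 2 genes ranked first and second in FPKM in both libraries.

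Scaffold and ligase of single-strand break repair differed in extent. *Xrcc1*, for the scaffold, had 1945 and 161 counts, 6.62-fold (5.63 to 7.82) lower, and *Lig3*, for the ligase it binds, had 2923 and 588 counts, 2.72-fold (2.49 to 2.98) lower. Of the *Lig3* exon bases 25.1% lie opposite another gene, mainly *Rffl*, which had 443 and 448 counts. The *Xrcc1* to *Lig3* ratio in FPKM was 1.07 without treatment and 0.439 with TSA. The glycosylases, which remove altered bases, were closer to each other. *Ung*, for the enzyme that removes uracil, had 1096 and 167 counts, 3.60-fold (3.05 to 4.26) lower. *Ogg1*, for the enzyme that removes oxidised guanine, had 310 and 57 counts, 2.98-fold (2.24 to 4.03) lower.

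Of the 5 nucleotide excision repair genes 1 was higher and 2 were lower, and their median was 0.59 relative to all genes. For the 16 other genes of this route, described further on, the median was -0.40, so the sign depends on the genes listed. *Ddb2*, a damage sensor that finds ultraviolet lesions in chromatin, had 70 counts (2.01 FPKM) and 89 (2.58 FPKM), 2.32-fold (1.68 to 3.22) higher with TMM and 1.29-fold higher with total counts, where it is not called. Of its annotated exon bases 23.8% lie opposite another gene, mainly *Acp2*, for a lysosomal phosphatase, which had 895 and 1252 counts and was 2.55-fold (2.34 to 2.78) higher. The labels and headers do not say whether counting used strand, so in that stretch reads of *Ddb2* and its neighbours cannot be told apart. *Xpc*, for the sensor of helix distortion, had 440 counts (7.01 FPKM) and 369 (5.94 FPKM), a ratio of 1.53 (1.33 to 1.76) with TMM and 0.848 with total counts. *Xpa*, for the protein that verifies the lesion, had 98 and 75 counts, a ratio of 1.40 (1.02 to 1.91) and 0.774.

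The other 2 genes of this route, *Ercc1* and *Ercc2*, were lower. *Ercc1*, for a subunit of the nuclease that cuts 5′ of the lesion, had 276 and 49 counts, 3.09-fold (2.27 to 4.27) lower. *Ercc2*, for the XPD helicase of transcription factor TFIIH, had 1405 and 265 counts, 2.91-fold (2.55 to 3.33) lower, and 42.4% of its exon bases lie opposite another annotated gene. Outside the 39, and named after their values were seen, the nuclease genes *Ercc4* and *Ercc5* had 1.28-fold and 1.24-fold higher values with TMM and 1.41-fold and 1.46-fold lower ones with total counts, and were called by neither. The helicase gene *Ercc3* had a 1.22-fold lower value with TMM, where it was not called, and was 2.19-fold lower with total counts. Within a library, the *Xpc* to *Parp1* ratio in FPKM was 0.0615 without treatment and 0.417 with TSA, 6.77-fold (5.79 to 7.93) apart, and *Xpc* ranked 24 of 39 in FPKM without treatment and 5 with TSA.

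The makeup of repair transcripts differed between the libraries. Nucleotide excision genes made up 6.42% of the summed FPKM of the 39 genes without treatment and 18.9% with TSA, and the MRN complex 4.90% and 10.5%. Recombination genes went from 9.38% to 3.58% and Fanconi anaemia genes from 3.32% to 0.761%. End joining (12.2% and 14.3%) and checkpoint kinases (5.11% and 4.77%) took similar shares, and base excision genes stayed the largest group at 55.1% and 44.3%. The summed FPKM was 706 without treatment and 99.4 with TSA.

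**Figure D4:**
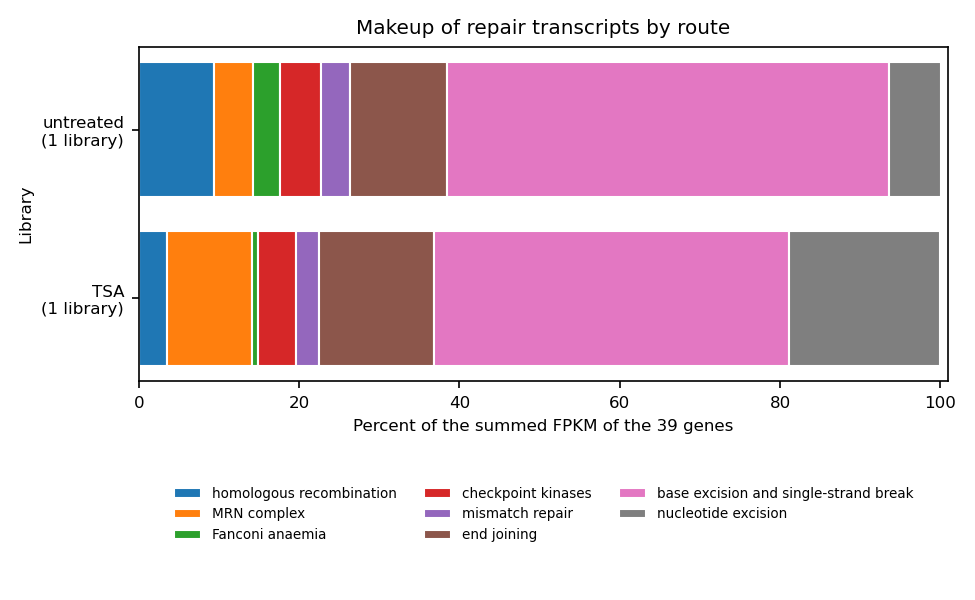
Percent of the summed FPKM of the 39 genes taken by each repair route in the untreated and TSA libraries, 1 bar per library, coloured by route. The nucleotide excision segment is 6.42% without treatment and 18.9% with TSA, and the recombination and Fanconi anaemia segments are narrower with TSA.

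Other genes of the same routes were listed from textbook knowledge, and 96 were matched in the tables. Of these, 48 were lower and 2 higher with TMM, and 76 lower and 2 higher with total counts, and their median was -0.89 relative to all genes. Checkpoint signalling genes had the lowest median of them, -2.00, with 9 of 14 lower: *Rad9a*, for a clamp subunit that helps activate ATR, was 9.49-fold (6.81 to 13.6) lower and *H2afx*, for the histone H2AX that is phosphorylated around breaks, 6.72-fold (5.66 to 8.03) lower. Recombination genes ranged widely, with 9 of 17 lower. *Polq*, for the polymerase of an error-prone break repair, had 732 and 6 counts, 66.8-fold (30.6 to 183) lower. Of 12 Fanconi anaemia genes 8 were lower, among them *Ube2t*, for the ubiquitin-conjugating enzyme of the pathway, 21.1-fold (10.6 to 49.3), and *Usp1*, for the enzyme that removes that ubiquitin, 3.94-fold (3.53 to 4.40).

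In the remaining routes the share of lower genes is to be read against 27.4% of all genes with TMM and 48.7% with total counts. Of 5 other mismatch repair genes 2 were lower, and 4 with total counts. In end joining 3 of 6 were lower (4 with total counts), including *Aplf* at 2.33-fold and *Poll* at 2.30-fold. In base excision 8 of 16 were lower (12 with total counts): *Parp2*, the relative of PARP1, had 1094 and 160 counts, 3.75-fold (3.17 to 4.45) lower, and the glycosylase gene *Neil2* had 50 counts and 1, 27.4-fold (4.70 to 1103) lower. In nucleotide excision 7 of 16 were lower (12 with total counts) and none higher, including *Ddb1*, the partner of DDB2, which had 18895 and 4014 counts, 2.58-fold (2.49 to 2.67) lower, and *Ercc8*, 3.25-fold (2.45 to 4.37) lower. Of 10 genes of lesion bypass and direct reversal 2 were lower, and 7 with total counts. *Rev1*, for a bypass polymerase, was 1.84-fold (1.64 to 2.07) below the untreated level with TMM, where it was not called, and 3.32-fold lower with total counts, where it was. The 2 higher genes were *Mgmt*, for the protein that removes alkyl groups from guanine, with 89 and 253 counts, 5.19-fold (4.06 to 6.68), and *Parp3*, named after its value was seen, with 111 and 571 counts, 9.39-fold (7.65 to 11.6). Both were also called higher with total counts.

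The 39 genes lay between the rest of the repair list and the genes of proliferation. Cell division genes had a median of -5.99 and replication genes of -3.11 relative to all genes, against -2.15 for the 39. The smallest difference among cell division genes was 18.8-fold, for *Kif23*, and 6 of the 39 genes lay at or below that ratio: *Exo1*, *Rad54l*, *Bard1*, *Fanci*, *Fancd2* and *Fanca*. Of the 39 genes 12 lay at or below the replication median, 9.33-fold lower. The genes with most counts in these lists were *Top2a*, 99.2-fold (76.5 to 131) lower, and *Mcm6*, 25.1-fold (21.3 to 29.7) lower. In the hepatocyte list it was *Alb*, 57.1-fold (56.6 to 57.6) higher. These are single libraries and the lists were chosen with earlier results known, so the order of medians is a description.

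**Figure D5:**
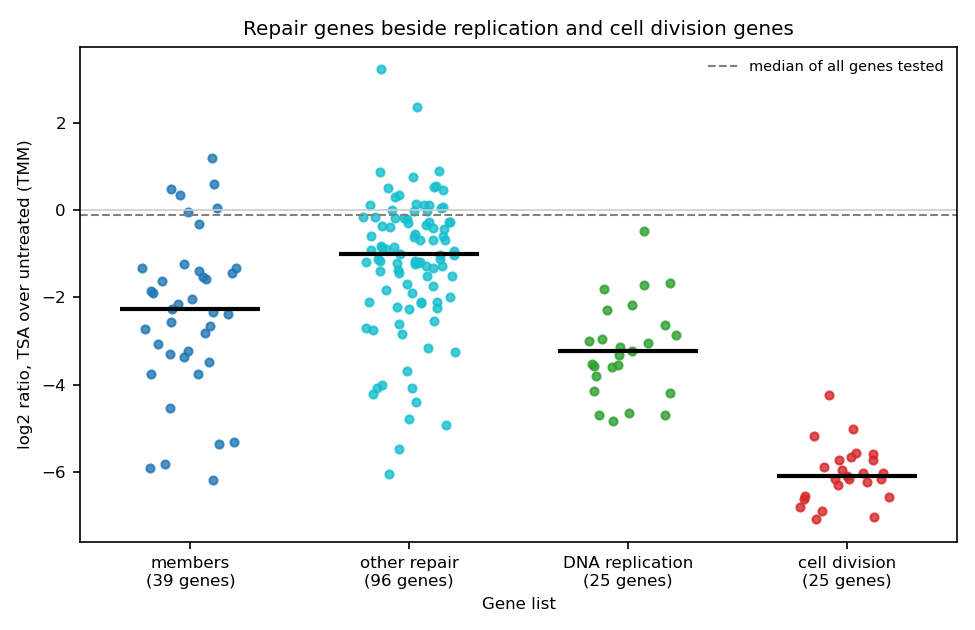
Log2 ratio of TSA over untreated (TMM) for the 39 repair genes (members), 96 other repair genes, 25 replication genes and 25 cell division genes, 1 point per gene, with black lines at list medians and a dashed line at the median of all genes tested. With *Bard1* drawn at its floor, the repair genes span from *Fanci* at -6.20 to *Ddb2* at 1.21, and cell division genes all lie below -4.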

How the data were processed

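The authors deposited counts per gene symbol, whole numbers in both libraries, which were assumed to be unscaled. The deposited FPKM equals those counts per gene model length and library total: the implied length agreed within 0.1 base between the libraries for 14271 of 14271 genes counted in both. FPKM therefore carries total-count scaling, and is used for levels. The submitters' processing notes name Trimmomatic, HISAT2, Bowtie2 and DESeq; the genome build, the counting tool and its strand setting are not stated there. Total counts were 17281523 (untreated) and 17088227 (TSA). TMM factors came from edgeR 4.0.16 (R 4.3.3), and relative to total counts they moved every log2 ratio by 0.85, or 1.80-fold. Alternatives were total counts, upper quartiles and size factors from DESeq2 1.42.0. Genes needed 20 summed counts. Intervals are exact conditional binomial (Clopper-Pearson) for ratios, conditional odds ratios for pairs of genes (scipy 1.17.1) and Wilson for shares. They treat each read as independent, which reads without molecular identifiers are not. A count of 0 was set to 3. The calling was tested on simulated data in which 200 genes were changed. Far more genes were called in these libraries, so the simulation does not cover a difference this broad. The members and lists were chosen with earlier results of these data known. All 39 members are named; other repair genes are named per route by the largest difference, among those with at least 50 summed counts, and by the highest FPKM. Some of these are not reported here, though the counts over lists include them. Exon overlaps were read from GENCODE M21, in which all 39 members matched, and 5 members had over 20% of their exon bases in common with other genes.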

Additional observations from a re-analysis of the deposited data

How the results depend on the processing

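Of the 39 genes 32 were lower and 1 was higher. The lower count was 33 with total counts, 33 with the deposited FPKM and 0.1 added, 32 with DESeq2 size factors, upper quartiles, no count minimum beyond 1 or a 1.5-fold rule, and 22 with a 4-fold rule. The higher count was 0 with total counts, 0 with FPKM, 0 with a 4-fold rule and 2 with a 1.5-fold rule. The median relative to all genes ranged from -2.31 to -2.08 over its alternatives, and the route medians kept their sign at a minimum of 1 count. Total counts raised the number of lower genes among the other repair genes from 48 to 76. By total counts *Nbn* became lower (ratio 0.448), *Ddb2* was no longer called (1.29), and *Rad51c*, *Prkdc*, *Xpc* and *Xpa*, not called by TMM either, had ratios under 1. The ratio of *Lig4* moved from just under 1 to 1.01 with DESeq2 size factors. No paired analysis was possible because each group has 1 library, and for the same reason no library could be left out. Depth limits *Bard1*, *Fanci*, *Fancd2* and *Rad54l* most, with at most 7 counts each with TSA.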
